A study of Mus musculus with 8 samples.

Results

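The genes described here belong to the vesicle traffic and lysosome machinery: Rab and Arf GTPases, the COPI and COPII coats, the Sec61 translocon, SNAREs, sorting nexins, Vps complexes, cathepsins, Lamp proteins and the vacuolar H+-ATPase (V-ATPase). They were chosen by symbol (names starting with Vps, Snx, Stx, Vamp, Lamp or Atp6, with Rab, Arf or Sec before a digit, with Cop before a, b, e, g or z, or made of Cts and 1 letter), and each was represented by its brightest probe. Of 24611 probes on the array 8851 could be named, and 90 such genes were found among them. Of these, 65 had a probe with a detection p-value under 0.05 on at least 4 of 8 arrays and were tested, out of 4137 genes that could be named among 12281 kept probes. Counts of genes on the array cover named probes only. RNA came from mammary tumours of female MMTV-PyVmT mice (FVB/N-Tg(MMTV-PyVT)634Mul/J) and was hybridised to Illumina arrays. In 4 tumours the mice had received SKI-606 (bosutinib), an inhibitor of Src and Abl kinases, at 100 mg/kg by oral gavage, and 4 further tumours were from mice given vehicle. All 8 tumours carried the same transgene, in which the MMTV promoter drives the polyoma middle T antigen mainly in mammary epithelium. Neither the age of the mice nor the length of treatment is given in the sources used here.

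Newly made secretory and membrane proteins enter the endoplasmic reticulum (ER) through the Sec61 channel, leave it in COPII vesicles, and are returned by COPI vesicles. Rab and Arf GTPases mark the membranes, tethers and SNAREs bring vesicles to fusion, and sorting nexins and retromer retrieve cargo from endosomes. The V-ATPase pumps protons into endosomes and lysosomes, where cathepsins degrade what arrives. In mammary epithelium the same routes carry milk proteins out of the cell and return growth factor receptors from the surface.

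The arrays held 24611 probes each, of which 11837 to 12578 were detected, at a mean signal between 300.3 and 419.6. SKI-606 tumours lay at the first positions of a single chip and vehicle tumours at the last, and position therefore cannot be told apart from treatment. One label of SKI-606 replicate 2, its source name, names cells from human islets, against its title and remaining labels, which give mouse mammary tumour. Values without SKI-606 replicate 2 stand beside the results for the genes chosen by symbol that had an unadjusted p under 0.05. They are not given for single genes of the same pathways that were not chosen by symbol, nor for markers of other cells. Over all kept probes SKI-606 replicate 2 correlated most with vehicle replicate 2 (r = 0.984), and at 0.942 to 0.968 with the other SKI-606 tumours. SKI-606 replicate 4 was also closest to a vehicle tumour, replicate 3 (r = 0.983). Whether each array is a separate animal is not stated, and p-values therefore reflect only the spread among these arrays. In bulk tumours fewer cells of a type and less RNA per cell cannot be told apart. Markers of other cells moved with the groups: the 7 of 10 fibroblast markers that were measured summed to 11370 to 15649 in SKI-606 tumours, against 5950 to 9526 in vehicle tumours, and the 5 of 11 endothelial markers to 1510 to 2131 in SKI-606 tumours, against 1031 to 1309 in vehicle tumours (normalized signal). The 2 of 10 adipocyte markers measured summed to 2501 to 8944 in SKI-606 tumours, against 2184 to 3312 in vehicle tumours. For the 5 of 14 macrophage markers measured the ranges were 2448 to 4354 in SKI-606 tumours, against 3424 to 3827 in vehicle tumours. The 6 of 11 luminal epithelial markers measured summed to 44604 to 52123 in SKI-606 tumours, against 30112 to 38922 in vehicle tumours. By gene, 3 of these were higher and 3 lower, and the milk protein gene Csn2 differed by 2.62 on the log2 scale. The part of all these cell types in the results on traffic and lysosome genes was not tested.

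Across the 65 genes the differences between SKI-606 and vehicle tumours were small and split evenly in direction. In SKI-606 tumours 33 genes were higher and 32 lower (42 and 23 with cyclic loess, 15 and 50 with arrays scaled to one median), where 47.4% of all kept probes were higher. Scaling to one median moved the median of all probes to -0.12 and that of the 65 genes to -0.10, so directions under it are read against that shift. The median difference (SKI-606 minus vehicle, log2 signal) was 0.0081 for these genes and -0.0083 for all kept probes, and the median size of a difference was 0.12 for these genes and 0.13 for all kept probes. By size, 45 of the 65 differed by less than 0.2 and 4 by more than 0.5. The 95% confidence interval lay within 0.5 of 0 on the log2 scale for 40 of them.

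No traffic or lysosome gene passed the threshold of 0.05 after Benjamini-Hochberg adjustment in limma, where the share of all kept probes that did was 0.00814%. The smallest adjusted p among the members was 0.0987. At an unadjusted p under 0.05 there were 5 higher genes (7.69%, against 6.04% of all kept probes) and 4 lower genes (6.15%, against 10.3%). The 4 SKI-606 values lay wholly above the 4 vehicle values for 3 genes, or 4.62% against 3.76% of all kept probes, and wholly below them for 3 genes, or 4.62% against 7.42%. These shares were near or below the background in each direction. Without SKI-606 replicate 2, the genes at an unadjusted p under 0.05 numbered 9 of 65 higher and 3 of 65 lower, beside 8.09% of all kept probes higher and 11.1% lower. Both directions together made 12 of 65 genes, beside 19.2% of all kept probes. Groups did not overlap for 8 of 65 higher and 4 of 65 lower genes there, where the shares of all kept probes were 7.74% higher and 11.2% lower. By both counts the share in that setting was above the background for higher genes and below it for lower genes.

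**Figure D1:**
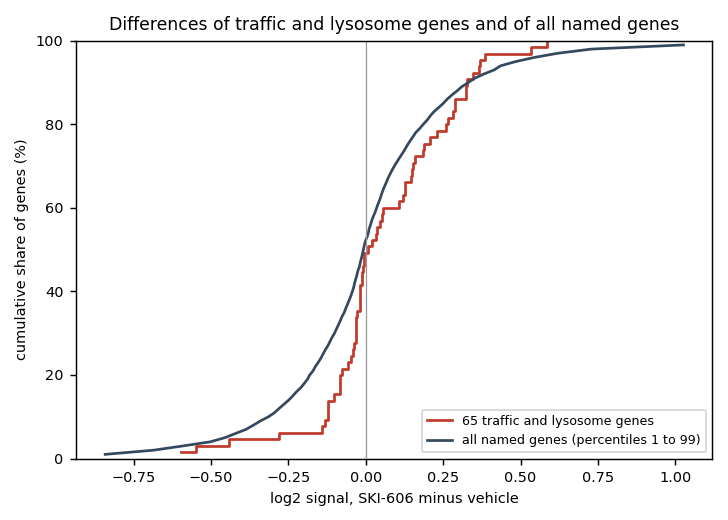
Cumulative share of genes (%, vertical axis) against the difference in log2 signal, SKI-606 minus vehicle (horizontal axis), for the 65 traffic and lysosome genes and all named genes. The medians are 0.0081 for the 65 genes and -0.0077 for the named genes, and no traffic or lysosome gene differs by more than 0.60 in size.

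**Figure D2:**
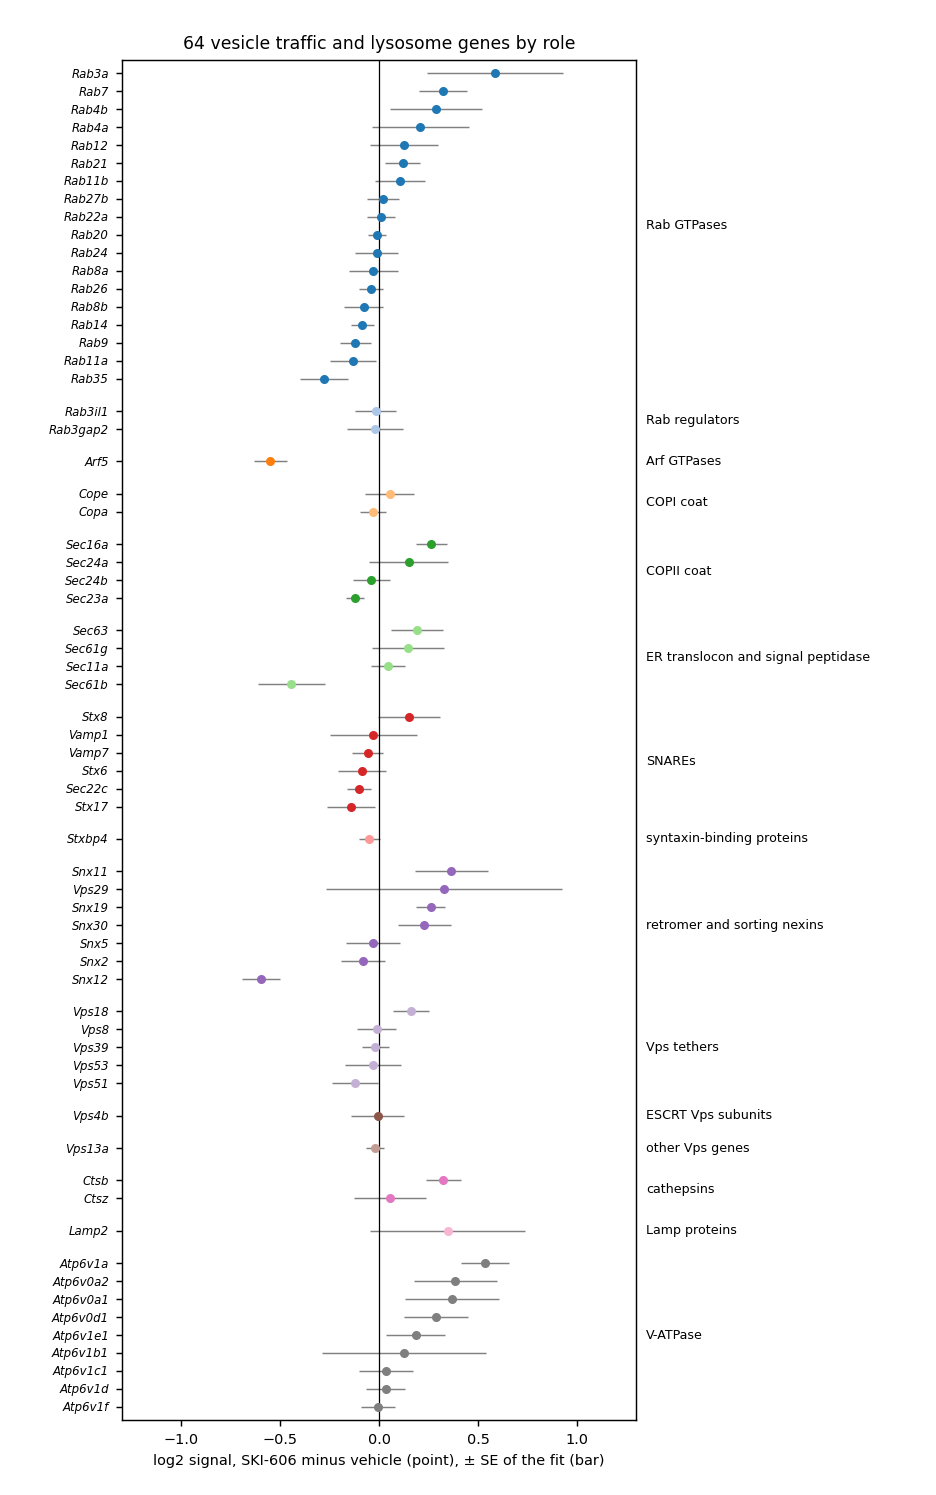
Difference in log2 signal, SKI-606 minus vehicle, of 64 of the 65 genes (points) with the standard error of the fit (bars), grouped by role. Most points lie within 0.2 of 0, with Arf5 and Snx12 farthest to the left; under scaling of arrays to one median 50 of the 65 lie below 0.

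Promoter windows are shown for Atp6v1a and Arf5, the V-ATPase and Arf members with the smallest p, and for Atp6v0d1 and Rab21, whose windows also hold an E-box and whose own p was above 0.05. Among the other genes at an unadjusted p under 0.05, the windows of Snx12, Snx19, Sec16a, Sec23a, Sec61b and Rab7 held no E-box. No window was given for Ctsb. The windows are RefSeq's for GRCm38.p6 and run from 250 bases before the gene start to 50 after it, read 5′ to 3′ on the gene's strand. Capitals mark the E-box CACGTG, extended to TCACGTGA where those letters are present, the core of the CLEAR element that TFEB and its relatives bind in many lysosomal genes. Atp6v1a lies on the minus strand at chr16:44139210-44139509, Atp6v0d1 on the minus strand at chr8:105566015-105566314, Rab21 on the minus strand at chr10:115315542-115315841 and Arf5 on the plus strand at chr6:28423354-28423653.
Atp6v1a: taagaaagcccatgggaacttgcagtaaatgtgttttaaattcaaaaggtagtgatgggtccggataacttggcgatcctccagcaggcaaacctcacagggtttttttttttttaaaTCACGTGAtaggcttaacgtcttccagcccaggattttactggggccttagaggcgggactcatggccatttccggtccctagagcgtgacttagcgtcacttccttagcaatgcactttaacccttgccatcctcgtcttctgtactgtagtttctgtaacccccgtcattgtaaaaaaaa
Atp6v0d1: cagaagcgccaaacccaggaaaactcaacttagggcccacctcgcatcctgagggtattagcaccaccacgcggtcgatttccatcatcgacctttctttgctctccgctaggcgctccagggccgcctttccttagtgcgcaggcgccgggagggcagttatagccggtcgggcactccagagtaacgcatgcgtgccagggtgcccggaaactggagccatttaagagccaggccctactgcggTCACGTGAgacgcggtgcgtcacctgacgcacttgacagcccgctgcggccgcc
Rab21: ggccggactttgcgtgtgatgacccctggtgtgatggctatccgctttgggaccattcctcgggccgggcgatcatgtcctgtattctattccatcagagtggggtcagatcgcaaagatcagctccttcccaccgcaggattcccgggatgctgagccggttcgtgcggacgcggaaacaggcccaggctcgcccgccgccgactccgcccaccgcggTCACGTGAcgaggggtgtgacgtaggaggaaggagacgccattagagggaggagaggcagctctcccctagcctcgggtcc
Arf5: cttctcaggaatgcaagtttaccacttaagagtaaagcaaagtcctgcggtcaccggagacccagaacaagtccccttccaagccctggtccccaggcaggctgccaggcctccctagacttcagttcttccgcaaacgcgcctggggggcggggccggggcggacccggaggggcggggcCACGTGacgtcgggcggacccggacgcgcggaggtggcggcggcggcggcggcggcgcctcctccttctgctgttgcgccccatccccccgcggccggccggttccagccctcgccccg
The E-box begins 131 bases before the start in Atp6v1a, 3 before it in Atp6v0d1, 30 before it in Rab21 and 69 before it in Arf5.

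A window was given for 54 of the 65 genes, and both strands were searched. CACGTG occurred in 11 of the 54 (20.4%), against 11.3% of the 3327 named and measured genes with a window and 8.09% of all 27025 genes with a window. TCACGTGA, which contains CACGTG, occurred in 5 of the 54 (9.26%, against 2.25% of named and measured genes and 1.12% of all genes with a window). These were Atp6v1a, Atp6v0d1, Rab21, Rab24 and Stx6, and their differences in signal were 0.53, 0.29, 0.12, -0.01 and -0.08. The full palindromic CLEAR element, which contains both shorter motifs, occurred in Rab21 and Rab24 (3.7%, against 0.631% of named and measured genes and 0.37% of all genes with a window). Of the other motifs searched, the unfolded protein response element TGACGTGG occurred in Sec23a alone (1.85%, against 1.05% of named and measured genes and 0.714% of all genes with a window). The ER stress response element (ERSE) occurred in none, against 0.15% of named and measured genes and 0.137% of all genes with a window. By role, TCACGTGA was held by 2 of 7 V-ATPase genes with a window, 1 of 5 genes grouped as SNAREs and 2 of 15 Rab genes. A match of letters describes the window, not binding.

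Entry into the ER and exit from it were represented by 4 translocon and signal peptidase genes, 4 COPII genes and 2 COPI genes. Sec61b, the beta subunit of the Sec61 channel, had log2 signals of 11.27, 10.77, 10.67 and 10.90 in SKI-606 tumours, against 11.47, 10.95, 11.49 and 11.45 in vehicle tumours. The groups overlapped, because SKI-606 replicate 1 lay above vehicle replicate 2. The difference was -0.44 ± 0.17 (SE, n = 4 each; limma adjusted p = 0.264), and a second Sec61b probe gave -0.25 ± 0.16. Without SKI-606 replicate 2 it was -0.40. Sec61g, the gamma subunit of the same channel, averaged 12.08 in SKI-606 tumours, against 11.94 in vehicle tumours (difference 0.15 ± 0.18, adjusted p = 0.759 in limma, and 0.01 without vehicle replicate 4). For Sec63, which works with the channel in protein import, the means were 10.54 in SKI-606 tumours, against 10.35 in vehicle tumours (difference 0.19 ± 0.13, adjusted p = 0.543 in limma, and -0.03 with arrays scaled to one median). Sec11a of the signal peptidase differed by 0.05.

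Sec16a, the scaffold of ER exit sites where COPII coats form, had log2 signals of 10.47, 10.24, 10.41 and 10.32 in SKI-606 tumours, against 9.96, 10.11, 10.08 and 10.24 in vehicle tumours. The groups overlapped narrowly, at 10.24 in SKI-606 replicate 2 and vehicle replicate 4. The difference was 0.26 ± 0.08 (SE, n = 4 each; limma adjusted p = 0.195), 0.30 without SKI-606 replicate 2, and 0.04 when arrays were scaled to one median. Sec23a, of the inner COPII coat, was dim: 6.13, 6.12, 6.11 and 6.08 in SKI-606 tumours, against 6.26, 6.16, 6.26 and 6.24 in vehicle tumours. Every SKI-606 value lay below every vehicle value, by a difference of -0.12 ± 0.05 (limma adjusted p = 0.264). It was -0.13 without SKI-606 replicate 2 and -0.33 without background correction. Both Sec24 cargo adaptors measured, Sec24a and Sec24b, had overlapping groups, with differences of 0.15 and -0.04. The COPI subunits Copa and Cope differed by -0.03 ± 0.07 and 0.05 ± 0.12, and both directions changed under other settings.

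Arf5, a small GTPase of the early secretory pathway and Golgi, showed the smallest p of all 65 genes. Its log2 signals were 8.28, 8.48, 8.32 and 8.39 in SKI-606 tumours, against 8.99, 8.71, 8.99 and 8.97 in vehicle tumours. The groups did not overlap, and vehicle replicate 2 was the lowest vehicle value. The difference was -0.55 ± 0.08 (SE, n = 4 each), a signal 0.684 times that of vehicle with a 95% interval of 0.599 to 0.781, and the limma adjusted p was 0.0987. An exact two-sided permutation of the 4 and 4 values gave p = 0.0286, the smallest this design allows. This value follows from groups that do not overlap, and 6 of the 65 genes reached it. That is 9.23%, where groups did not overlap for 11.2% of all kept probes. Without SKI-606 replicate 2 the difference was -0.58, and with weights for array quality it passed the adjusted threshold (adjusted p = 0.0352 in limma). These weights called 185 probes in all. In no other of the 19 alternatives did Arf5 pass, and its limma adjusted p reached 0.385 among them. No other Arf gene matched the symbols among the named probes.

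Among 22 Rab genes on the array 18 were measured, 9 higher and 9 lower in SKI-606 tumours (3 and 15 with arrays scaled to one median, with 10 above the median of all probes), and the median difference was -0.00079. Rab7, of late endosomes and lysosomes, had log2 signals of 10.94, 10.61, 10.76 and 10.74 in SKI-606 tumours, against 10.58, 10.61, 10.43 and 10.13 in vehicle tumours. The groups met at 10.61, in SKI-606 replicate 2 and vehicle replicate 2. The difference was 0.32 ± 0.12 (SE, n = 4 each; limma adjusted p = 0.261), and 0.37 without SKI-606 replicate 2. Both other Rab7 probes were close to background, with differences of -0.13 ± 0.08 and -0.09 ± 0.07, and the mean over the 3 probes differed by 0.04. The direction of Rab7 thus rests on its brightest probe.

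Rab3a, a GTPase of regulated exocytosis, had the widest spread among the Rab genes. It read 7.45, 6.38, 8.03 and 6.63 in SKI-606 tumours, against 6.53, 6.59, 6.61 and 6.42 in vehicle tumours. Replicates 3 and 1 of the SKI-606 group were high, while replicate 2 was below all vehicle values. The difference of 0.59 ± 0.34 (limma adjusted p = 0.461) became 0.83 without SKI-606 replicate 2 and 0.28 without replicate 3. Rab35, which acts in recycling from the plasma membrane, read 9.75, 10.22, 9.86 and 9.96 in SKI-606 tumours, against 10.27, 10.27, 9.998 and 10.37 in vehicle tumours. Its groups overlapped through SKI-606 replicate 2 and vehicle replicate 3 (difference -0.28 ± 0.12, limma adjusted p = 0.313, and -0.37 without SKI-606 replicate 2).

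The recycling endosome pair differed little: Rab11a by -0.13 ± 0.12 and Rab11b, by 0.11 ± 0.13 (-0.06 with arrays scaled to one median). Rab14, of the Golgi and early endosomes, differed by -0.08 ± 0.06, and Rab9, which returns receptors from late endosomes to the Golgi, by -0.12 ± 0.08. The remaining 11 Rab genes had differences between -0.08 and 0.29. Of the regulators, Rab3gap2, a subunit of the Rab3 GTPase-activating complex, and Rab3il1, a Rab exchange factor, both differed by -0.02 and changed direction under several settings.

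SNAREs and their partners showed overlapping groups throughout. Of 9 genes on the array grouped by symbol as SNAREs, Sec22c among them, 6 were measured. Of these 1 was higher and 5 lower in SKI-606 tumours (2 and 4 with cyclic loess), with a median difference of -0.07 and none at an unadjusted p under 0.05. Stx17, which fuses autophagosomes with lysosomes, averaged 6.65 in SKI-606 tumours, against 6.79 in vehicle tumours (difference -0.14 ± 0.12), and Sec22c of the early secretory pathway 6.26 in SKI-606 tumours, against 6.36 in vehicle tumours (difference -0.10 ± 0.06). Stx8, of late endosomes, was the one higher SNARE, at 11.17, 10.44, 10.91 and 10.66 in SKI-606 tumours, against 10.81, 10.53, 10.64 and 10.59 in vehicle tumours (difference 0.15 ± 0.16, 0.03 without SKI-606 replicate 1, and -0.04 when arrays were scaled to one median). Stxbp4, a syntaxin-binding protein, differed by -0.05 ± 0.05.

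Sorting nexins held 2 of the 6 genes whose groups did not overlap (9.23% of the 65, against 11.2% of all kept probes), in opposite directions. Snx12, a small nexin with a phosphoinositide-binding PX domain, had log2 signals of 7.21, 6.83, 6.96 and 7.07 in SKI-606 tumours, against 7.72, 7.58, 7.48 and 7.68 in vehicle tumours. The highest SKI-606 tumour was below the lowest vehicle tumour. The difference was -0.60 ± 0.09 (SE, n = 4 each), a signal 0.661 times that of vehicle with a 95% interval of 0.567 to 0.771 (limma adjusted p = 0.101), and -0.54 when SKI-606 replicate 2 was left out. Weighting arrays by quality, which called 185 probes in all, took it past the adjusted threshold (adjusted p = 0.0368 in limma). In no other of the 19 alternatives did Snx12 pass, and its limma adjusted p reached 0.378 among them.

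Snx19, a larger nexin that also carries a PX domain, read 8.26, 8.19, 8.40 and 8.27 in SKI-606 tumours, against 8.16, 8.00, 7.97 and 7.95 in vehicle tumours. Here all 4 SKI-606 values lay above the vehicle values, though SKI-606 replicate 2 and vehicle replicate 1 were close. The difference was 0.26 ± 0.07 (limma adjusted p = 0.172), 0.29 without SKI-606 replicate 2, and -0.02 when arrays were scaled to one median. Snx11 differed by 0.37 ± 0.18 (0.20 without SKI-606 replicate 1) and Snx2, a nexin that bends endosomal membranes, by -0.08 ± 0.11, both with overlapping groups. Vps29, a core retromer subunit chosen for mention after its values were seen, read 9.12, 9.26, 8.98 and 9.40 in SKI-606 tumours, against 9.66, 9.28, 9.62 and 6.90 in vehicle tumours. Vehicle replicate 4 alone was low for it, and all its other values lay within 1 log2 unit of each other.

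Of the Vps tethers, which hold vesicles at endosomes, lysosomes or the Golgi, 5 of 6 genes on the array were measured, 1 higher and 4 lower in SKI-606 tumours (2 and 3 with cyclic loess). Vps18, shared by the HOPS and CORVET complexes, averaged 9.62 in SKI-606 tumours, against 9.46 in vehicle tumours (difference 0.16 ± 0.09, and -0.08 with arrays scaled to one median). The GARP subunits Vps51 and Vps53, which tether vesicles returning to the Golgi, differed by -0.12 ± 0.11 and -0.03 ± 0.14, the second at 0.04 with cyclic loess. Vps4b, the ATPase that takes ESCRT polymers apart, differed by -0.01 ± 0.13 (0.01 with cyclic loess), and Vps13a, a lipid transfer protein, by -0.02 ± 0.04. No gene of these groups reached an unadjusted p under 0.05.

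**Figure D3:**
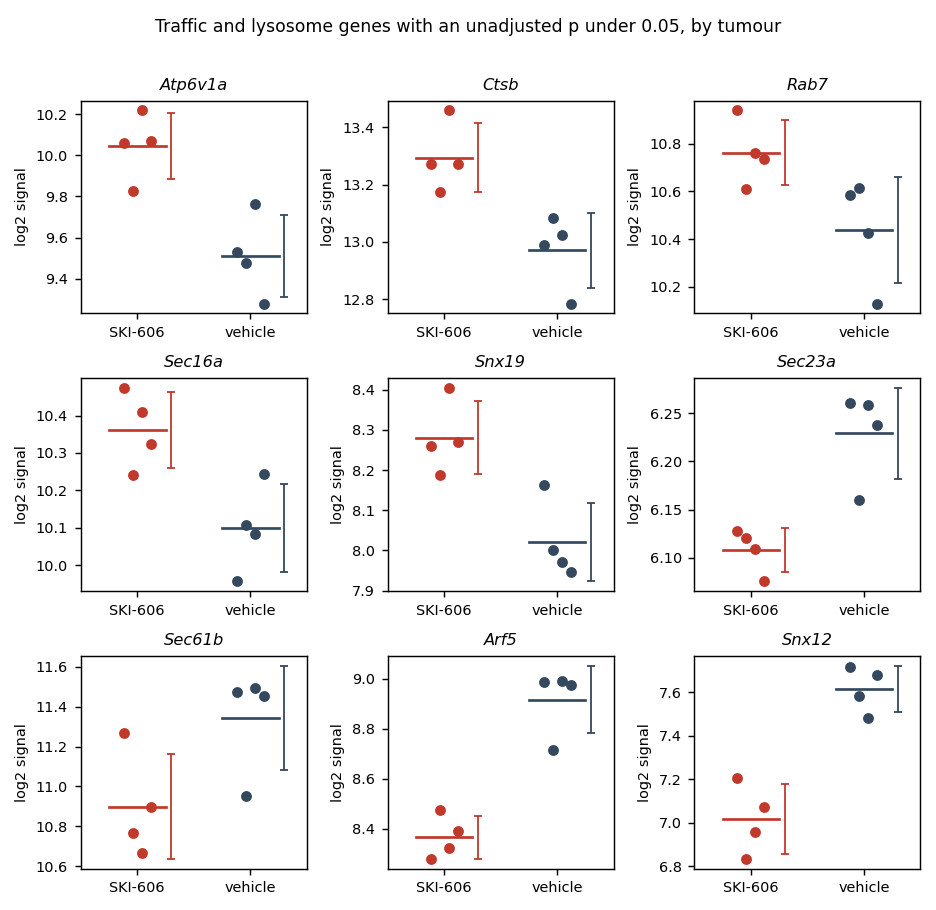
Log2 signal of the 9 genes at an unadjusted p under 0.05, 1 point per tumour, SKI-606 left and vehicle right, with the group mean (line) and SD (bar, n = 4 each); the vertical scale differs between panels and does not start at 0. The groups do not overlap for Atp6v1a, Ctsb, Snx19, Sec23a, Arf5 and Snx12, and they overlap for Rab7, Sec16a and Sec61b.

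Of the 9 V-ATPase genes measured, 8 were higher in SKI-606 tumours, though with arrays scaled to one median 4 of 9 were above 0 and 6 of 9 above the median of all probes. Its median difference was 0.18, beside -0.0083 for all kept probes. On average over the 9 genes, SKI-606 tumours stood 0.34, -0.07, 0.42 and 0.18 from the vehicle mean, and vehicle tumours -0.08, -0.05, -0.03 and 0.16. The groups thus overlapped, with SKI-606 replicate 2 among the vehicle values. The median was 0.28 without SKI-606 replicate 2, with all 9 genes higher, and 0.07 without SKI-606 replicate 3. Without vehicle replicate 4 it was 0.33.

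Atp6v1a, the catalytic A subunit of the cytosolic V1 sector, showed the largest difference of the 9. Its log2 signals were 10.06, 9.83, 10.22 and 10.07 in SKI-606 tumours, against 9.53, 9.48, 9.76 and 9.28 in vehicle tumours. The groups did not overlap. The difference was 0.53 ± 0.12 (SE, n = 4 each), a 1.45-fold higher signal with a 95% interval of 1.19 to 1.76 (limma adjusted p = 0.134), and 0.61 without SKI-606 replicate 2.

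In the membrane-bound V0 sector, Atp6v0a2 read 10.50, 9.50, 9.99 and 9.66 in SKI-606 tumours, against 9.33, 9.57, 9.56 and 9.66 in vehicle tumours. SKI-606 replicate 1 stood high, and replicate 2 lay within the vehicle range (difference 0.38 ± 0.21, limma adjusted p = 0.424, and 0.19 without replicate 1). Atp6v0d1, which joins the V0 rotor to the stalk, read 11.14, 10.47, 10.61 and 10.73 in SKI-606 tumours, against 10.27, 10.64, 10.30 and 10.59 in vehicle tumours. Replicate 1 was again highest, and the groups overlapped (difference 0.29 ± 0.16, limma adjusted p = 0.436, and 0.15 without replicate 1). Atp6v1e1, of the peripheral stalk, read 12.93, 12.72, 13.43 and 12.94 in SKI-606 tumours, against 12.71, 12.78, 12.85 and 12.94 in vehicle tumours. SKI-606 replicate 3 was highest, and the groups overlapped (difference 0.18 ± 0.15, 0.04 without that replicate, and -0.01 when arrays were scaled to one median). The other 5 subunits, named after their values were seen, were Atp6v0a1 at 0.37, Atp6v1b1 at 0.13, Atp6v1c1 and Atp6v1d at 0.03 each, and Atp6v1f at -0.01. Atp6v1b1, the B subunit isoform known from acid-secreting epithelia, spanned 1.53 log2 units over the 8 tumours, with its lowest value, 9.26, in SKI-606 replicate 1 and its highest, 10.79, in vehicle replicate 4.

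Inside the lysosome, Ctsb, the cysteine protease cathepsin B, had log2 signals of 13.27, 13.17, 13.46 and 13.27 in SKI-606 tumours, against 12.99, 13.08, 13.02 and 12.78 in vehicle tumours. All SKI-606 values were above all vehicle values. The difference was 0.32 ± 0.09 (SE, n = 4 each), a 1.25-fold higher signal with a 95% interval of 1.09 to 1.44 (limma adjusted p = 0.169), and 0.36 without SKI-606 replicate 2. The second Ctsb probe, at 9.28, 9.27, 9.61 and 9.03 in SKI-606 tumours, against 8.61, 8.71, 8.63 and 8.88 in vehicle tumours, did not overlap either. It gave a difference of 0.59 ± 0.13 (limma adjusted p = 0.122), so both probes had the same direction.

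Ctsz, a lysosomal carboxypeptidase, read 10.17, 9.44, 9.33 and 9.41 in SKI-606 tumours, against 9.56, 9.43, 9.52 and 9.62 in vehicle tumours. Its difference of 0.06 ± 0.18 rested on SKI-606 replicate 1 and was -0.14 without it. Lamp2, a main glycoprotein of the lysosomal membrane, read 11.68, 12.10, 12.03 and 11.93 in SKI-606 tumours, against 12.04, 12.05, 11.96 and 10.31 in vehicle tumours. One vehicle tumour, replicate 4, was low, and the difference of 0.35 ± 0.39 (limma adjusted p = 0.732) was -0.08 without it. Markers of macrophages, cells rich in cathepsins, were higher for 1 and lower for 4 of the 5 measured, and their part in the Ctsb difference was not tested.

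**Figure D4:**
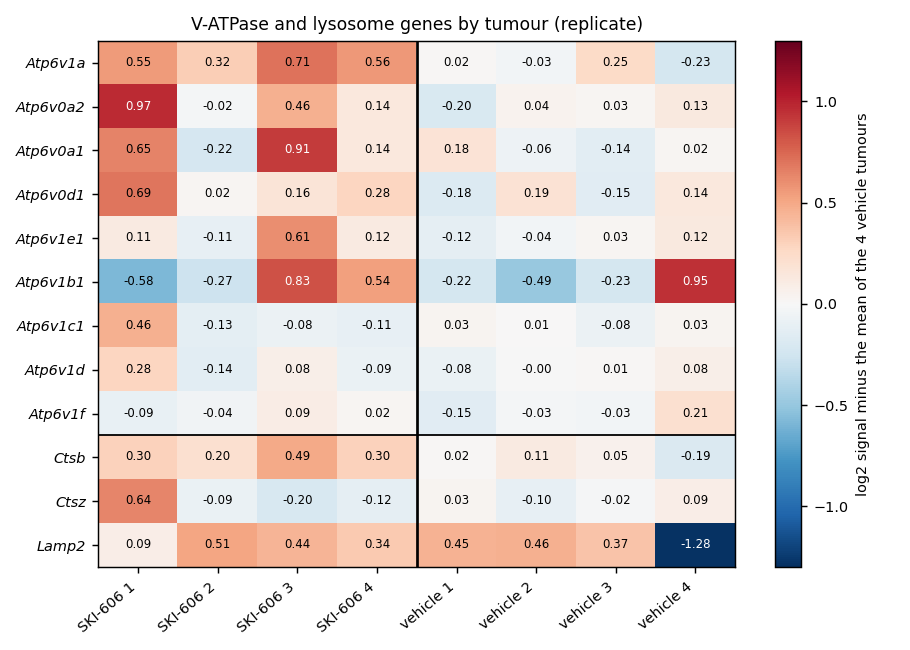
Log2 signal minus the mean of the 4 vehicle tumours (colour and number) for the 9 V-ATPase genes, 2 cathepsins and Lamp2, in the 4 SKI-606 tumours (left) and the 4 vehicle tumours (right). Atp6v1a, Ctsb, Atp6v0d1 and Lamp2 are above 0 in all 4 SKI-606 tumours, and of these the groups do not overlap for Atp6v1a and Ctsb. Atp6v1b1 is highest in vehicle replicate 4, and Lamp2 is low in vehicle replicate 4 only.

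Single tumours set much of the spread. SKI-606 replicate 3 had the highest value for 19 of the 65 genes and replicate 1 for 15, while SKI-606 replicate 2 had the lowest for 15. In the vehicle group replicate 4 had the highest value for 15 genes and the lowest for 12, and each of the other 3 had the highest for at most 5. The SD over tumours was larger in the SKI-606 group for 39 of the 65 genes (60%), beside 67.5% of all named genes. SKI-606 replicate 3 also stood apart for proliferation markers, whose 5 measured genes averaged -2.48 log2 units from the vehicle mean there.

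Genes of the same pathways outside the symbol rule were read from 8 lists, of whose 308 genes 107 were measured. None passed the adjusted threshold in limma (smallest adjusted p 0.126), and 9 higher and 4 lower genes had an unadjusted p under 0.05, or 12.1%, against 16.3% of all kept probes. Lysosomal hydrolases and related genes were higher for 12 and lower for 4 of 16 measured (7 and 9 with arrays scaled to one median, with 10 above the median of all probes), with a median difference of 0.17, beside -0.0083 for all kept probes. This list includes 2 higher genes that are not hydrolases, the cathepsin inhibitor Cst3 and the phosphotransferase subunit Gnptg. Values overlapped between groups for all 16 genes of the list. Phosphomannose receptors and Golgi sorting genes were higher for 9 and lower for 3 of 12 (6 and 6 with arrays scaled to one median), also with a median of 0.17. Clathrin and its adaptors (7 higher, 8 lower), tethers (7 higher, 8 lower), ESCRT genes outside the Vps family (4 higher, 7 lower), Rab and Arf regulators (10 higher, 9 lower), lysosomal membrane genes (8 higher, 6 lower) and a list of other SNAREs and ER to Golgi cargo proteins (4 higher, 1 lower) made up the rest. In the last list Vti1a was the only SNARE measured. Its other measured genes were Tmed2, Tmed4, Tmed10 and Lman1, and the lower one was Tmed2. With arrays scaled to one median, more genes were lower than higher in each of these 6 lists.

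In these lists the 3 smallest p-values in each direction belonged to Gga2, Tmed2 and Hyal2 among lower genes and Dnm2, Gga3 and Ap1b1 among higher ones. Gga2, an Arf-dependent adaptor that loads cargo for endosomes at the Golgi, averaged 9.43 ± 0.27 over SKI-606 tumours and 10.28 ± 0.30 over vehicle tumours (SD, n = 4 each; difference -0.85 ± 0.18 (SE), limma adjusted p = 0.126), with no overlap. Its relative Gga3 had the opposite sign, at 0.26 ± 0.07 (limma adjusted p = 0.162). Tmed2, a cargo receptor between ER and Golgi, differed by -0.63 ± 0.15, and Hyal2, a hyaluronidase, by -0.62 ± 0.17. Dnm2, the dynamin that pinches off vesicles, was 0.45 ± 0.12 and the clathrin adaptor subunit Ap1b1 0.38 ± 0.11, each as a difference in log2 signal.

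Of the 25 genes on the array that were not kept, 20 were detected on 0 arrays, among them the Rab5a and Ctsl probes, and 5 on 1 to 3 arrays. A probe that is not detected here says nothing of the gene's level. Of the 65 kept, 59 were detected on all 8 arrays, and 13 had a mean log2 signal under 6.5, close to background, where differences are compressed.

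**Figure D5:**
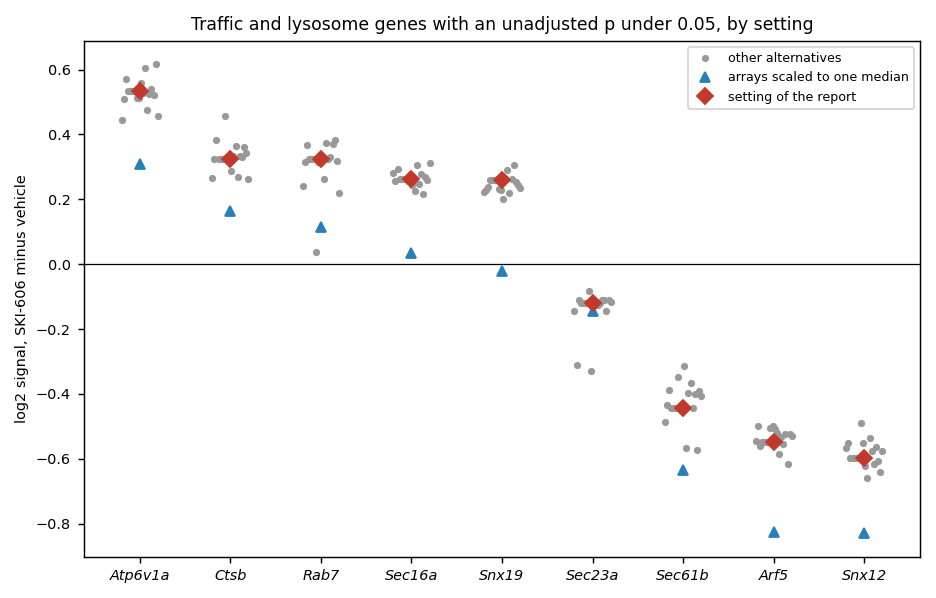
Difference in log2 signal, SKI-606 minus vehicle, of the 9 genes at an unadjusted p under 0.05, in the setting of the report (diamond), with arrays scaled to one median (triangle) and under the other alternatives (grey points). Every gene keeps its sign except Snx19, at -0.02 with median scaling, and Arf5 and Snx12 stay below -0.49 throughout.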

How the data were processed

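RNA from 8 mammary tumours was measured on 8 arrays, 4 of the SKI-606 group and 4 of the vehicle group, by their titles. In the deposited table each probe has an average intensity on each array, neither background-subtracted nor normalized. A detection p-value stands beside each intensity, per the file headers. A further deposited table of intensity values, normalized by the authors, served only as an alternative. The array software is not given in the sources used here.

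Background was removed by normexp and arrays were brought to common quantiles through limma's neqc (limma 3.58.1, R 4.3.3, offset 16), which estimates the negative controls from detection p-values and returns log2 values. Control probes (4) were dropped. A probe stayed in, as 12281 did, when its detection p was under 0.05 on 4 or more of 8 arrays. The model held only the group and was fitted with limma's lmFit and eBayes as SKI-606 minus vehicle, and the Benjamini-Hochberg adjustment covered every kept probe. The number of arrays limits the precision, and differences of dim probes are understated. The test was tried on simulated data first. That trial required only the right direction for changes larger than any seen among the members. It does not show how well differences of their size are found.

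The files pair no names with probes. Zero-padded numbers in probe identifiers were matched to gene IDs of RefSeq (GRCm38.p6). Of 9490 numbers with 1 or 2 leading zeros 93.3% matched, and of 3260 with more leading zeros 0 matched. In all 8851 of 24611 probes were named. The members, the pathway and marker lists and the promoter motifs were chosen with earlier results of these data known. Genes named are the first 10 by p among higher and among lower members and, in each role, the 2 with the smallest p, the brightest, and up to 2 whose groups do not overlap, 38 in all, of which 1 is not reported here, unless said otherwise; in the pathway lists they are those with the smallest p. Single values were compared by exact two-sided permutation. Same-numbered samples deviated from their group means with correlations of 0.0044, 0.63 and -0.02 for the numbers 1, 2 and 4. The samples numbered 2 thus deviated alike, and those numbered 1 and 4 did not. The numbers were not taken as pairs. Vehicle replicate 3 has no number in its title. Alternatives covered background, offset, normalization, filter, variance model, array weights, the mean of a gene's probes, the deposited normalized table, a replicate block and each array left out. Figures were drawn with matplotlib 3.10.9.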

Additional observations from a re-analysis of the deposited data

Results flagged for a closer look

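In 6 of the 76 groups of 4 tumours tested, 1 tumour stood apart from the other 3 of its group by Dixon's criterion, which chance meets in about 1 in 20 groups. Several of these values belong to vehicle replicate 4: its Lamp2 signal was lowest at 10.31 (next 11.96), its Rab9 signal highest at 6.61 (next 6.34) and its Vps51 signal highest at 9.26 (next 9.11), all in log2 units. Vehicle replicate 2 was lowest in its group for Arf5 at 8.71 (next 8.97) and for Sec61b at 10.95 (next 11.45). SKI-606 replicate 1 was highest in its group for Ctsz at 10.17 (next 9.44).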

How the results depend on the processing

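Over 19 alternatives, 24 of the 38 named genes kept their direction, and of 720 gene values 677 kept direction and side of the threshold, 41 changed sign and 2 passed the threshold. Arf5 and Snx12 passed it with array weights only, which called 185 probes in all and 2 members, where the setting of the report called 1 probe and no member. No probe was called (0) with detection on all 8 arrays, an intensity trend and robust prior, median scaling, an offset of 50 or the replicate block. Scaling arrays to one median moved the median of all probes to -0.12, the members' median to -0.10 and the V-ATPase median to -0.0054, which are 0.018 and 0.11 above that of all probes. It left 0 higher genes at an unadjusted p under 0.05, 0 higher and 6 lower genes without overlap, 15 members higher and 50 lower, and 4 V-ATPase genes higher. Under it Atp6v1e1 was -0.0054, Cope -0.13, Ctsz -0.19, Rab11b -0.065, Sec63 -0.027, Snx19 -0.021, Stx8 -0.040 and Vps18 -0.080. Cyclic loess gave 5 higher genes without overlap, Copa 0.029, Rab3gap2 0.0014, Rab3il1 0.028, Vps4b 0.0085 and Vps53 0.039. Array weights gave Cope -0.0014, Ctsz -0.024, Rab3il1 0.026 and Vps53 0.0068. Vps4b was 0.066 in the deposited normalized table and 0.10 without background correction, and Cope was -0.0049 as the mean of its probes. The replicate block over the numbers 1, 2 and 4, of which only number 2 showed related deviations, gave 1 higher gene at an unadjusted p under 0.05, 6 lower genes without overlap, a V-ATPase median of 0.052, Cope -0.0055, Rab11b -0.049, Rab3gap2 0.047 and Vps4b 0.098. With each array left out in turn, probes called ranged from 0 to 13 (13 without SKI-606 replicate 2, 7 without replicate 1), higher genes at an unadjusted p under 0.05 from 4 to 9, lower ones from 2 to 4 (2 without vehicle replicate 1), genes without overlap from 3 to 8 higher (5 without vehicle replicate 4) and from 3 to 6 lower (6 without SKI-606 replicate 1, 5 without replicate 4), and the V-ATPase median from 0.073 to 0.33. The same omissions moved Cope from -0.034 to 0.15, Ctsz from -0.14 to 0.14, Rab3il1 from -0.074 to 0.058, Rab3gap2 from -0.15 to 0.067, Vps4b from -0.13 to 0.074, Vps53 from -0.12 to 0.082, Rab11b from -0.0081 to 0.19 and Lamp2 from -0.080 to 0.50. The causes of these changes were not tested. Vps4b has no value with detection on all 8 arrays, and Vps13a none in the deposited normalized table. Dim probes close to background limit what can be seen for 13 of the 65 genes.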
